A study of Homo sapiens with 6 samples.

Results

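The NF-kB family was followed in NB4 cells through 10 genes, chosen by symbol. They are the 5 genes of the DNA-binding subunits (NFKB1, NFKB2, REL, RELA and RELB) and 5 genes of inhibitors and brakes (NFKBIA, NFKBIB, NFKBIE, NFKBIZ and TNFAIP3). All 10 were found among the 23858 genes of the deposited table, and all 10 had enough expression to be tested. NB4 cells are an established line of acute promyelocytic leukaemia and bear the PML-RARA fusion. Arsenic trioxide is given in the clinic against that disease. NB4 cells given arsenic trioxide for 6 h (3 libraries) were compared with control NB4 cells (3 libraries). Both groups are the same line, grown in the same serum-containing medium, with no genetic change named in the labels. No dose or vehicle is given in the labels. Nor do they say whether replicates came from separate cultures, so each p-value reflects the spread between these libraries, which may be technical. The series title ties the treatment to loss of the fusion protein, and the comparison asks which genes change within 6 h. No protein was measured, so neither the location nor the activity of NF-kB is known here.

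NF-kB subunits form dimers that are held in the cytoplasm by IkB proteins. Signals from cytokine and microbial receptors activate the IkB kinases, which mark IkB for destruction and let the dimers enter the nucleus. NFKB1 and NFKB2 encode precursors that are processed into DNA-binding subunits without an activation domain, while RELA, REL and RELB encode subunits that carry one. Several genes of the family are themselves NF-kB targets, which gives the pathway its feedback. In myeloid cells NF-kB drives genes of inflammation and survival.

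Library totals recovered from the deposited values were 19361333 to 22609019 reads. Levels are given as RPKM, read counts scaled to the exon length of the gene and to the total of the library, so that levels of different genes can be compared. The members rested on 121 to 2269 reads per library. The groups separated on principal component 1 (55.3% of the variance). On component 2 (15.2%) arsenic trioxide replicate 3 (23.0) and control replicate 1 (21.3) stood apart from the other 4 libraries (-14.8 to -6.85). Of 7 promyelocyte markers 6 were listed, with summed levels of 689 to 1041 RPKM after arsenic trioxide and 1039 to 1435 RPKM in control. The highest of these markers averaged 808 RPKM over the 6 libraries, so the sums mostly reflect 1 gene. Of the lists of other cell types reported here, the T cell (CD3D, of 4), epithelial (EPCAM, of 3) and erythroid (ALAS2, of 3) lists overlapped between the groups at 0.0853 to 6.72 RPKM, and 0 of 3 fibroblast markers were listed. Their part in the results was not tested.

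The sequences just before the gene starts are shown because feedback on this family runs through kappaB sites, the DNA element that NF-kB dimers bind. The 250 bases before each RefSeq gene start (GRCh38.p14) were searched on both strands for the 10-letter kappaB consensus. Of the 8 members in the RefSeq promoter table, 7 had at least 1 match at some start, and RELA had none at either start. Of all genes with such a window 11.8% had a match, and over all windows 9.96% of 35116 did, against 9 of 14 windows of the members. NFKBIE and RELB are named only. A match is a description of the letters and not evidence that a factor was bound. In the whole window before the upstream start of NFKBIZ, chr3:101827740-101827989 on the plus strand, the match is in capitals:
NFKBIZ: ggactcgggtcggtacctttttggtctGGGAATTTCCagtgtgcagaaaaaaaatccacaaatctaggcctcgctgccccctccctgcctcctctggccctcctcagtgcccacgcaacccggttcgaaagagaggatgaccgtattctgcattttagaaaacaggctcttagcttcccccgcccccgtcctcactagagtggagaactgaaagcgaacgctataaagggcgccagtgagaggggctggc
For the other members 30 bases around a match are set side by side, 5′ to 3′ in the direction of the gene, again with matches in capitals, to show the letters found. The search fixes their likeness:
NFKB1: cgacgtcagtGGGAATTTCCagccaggaag
NFKBIB: ggcgtggtgGGGAATTTCCCgcagggcgga
NFKBIA: tgactggcttGGAAATTCCCcgagcctgac
REL: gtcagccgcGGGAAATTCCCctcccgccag
NFKB2: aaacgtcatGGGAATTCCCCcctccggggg
NFKB2: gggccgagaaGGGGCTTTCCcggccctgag
NFKB2: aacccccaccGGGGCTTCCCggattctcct
NFKB2: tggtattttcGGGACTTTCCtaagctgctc
NFKBIZ: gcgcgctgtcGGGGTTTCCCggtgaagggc
TNFAIP3: ctttGGAAAGTCCCgtGGAAATCCCCgggc
NFKB1, NFKBIB and NFKBIZ share the same 10 letters, and NFKBIA and TNFAIP3 carry the element on the opposite strand. The stretch of NFKB1 lies at chr4:102501300-102501329, that of NFKBIB at chr19:38899932-38899961 and that of REL at chr2:60881518-60881547, all on the plus strand. The stretch of NFKBIA lies at chr14:35404811-35404840 on the minus strand and that of TNFAIP3 at chr6:137867188-137867217 on the plus strand. For NFKB2 the first 2 stretches lie before 1 start, at chr10:102394462-102394491 and chr10:102394490-102394519, and the others before a downstream start, at chr10:102395519-102395548 and chr10:102395674-102395703, all on the plus strand. The window before the most upstream start of NFKB2 had no match, nor had that of the downstream start of NFKB1 or the upstream start of NFKBIB. The stretch of NFKBIZ lies before its downstream start, at chr3:101849265-101849294 on the plus strand. In TNFAIP3 the first base of the element is 67 bases before the RefSeq start, and at the upstream RefSeq start of NFKBIZ it is 223 bases before it. The RefSeq starts searched are not always the first base of the gene ranges given below. By those ranges the matches of TNFAIP3, NFKB2, NFKBIB and REL, and the downstream match of NFKBIZ, lie inside the gene.

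After 6 h of arsenic trioxide 1 of the 10 members, NFKBIZ, was higher and 1, NFKBIE, was lower, and none of the 5 subunit genes passed the test. The test was limma-trend on log2(RPKM + 1), called at a Benjamini-Hochberg adjusted p under 0.05 over all 16803 tested genes, and fold changes on this scale understate those of low genes. Over all tested genes 25.4% were called (12.0% higher, 13.4% lower), so 2 of 10 members is near the background and is no result about the family. The median log2 fold change of the members was 0.02, against -0.00333 over all genes tested. In 3 of the 10 the groups did not overlap, against 44.6% of all tested genes. Limma-voom on reads recovered from the RPKM called 2 members higher and 2 lower, where it called 31.2% of all tested genes (14.9% higher, 16.3% lower). Without arsenic trioxide replicate 3 and control replicate 1 together, the libraries apart on the second component, NFKBIZ was higher and NFKBIE and TNFAIP3 were lower, where 16.0% of all genes were called.

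**Figure D1:**
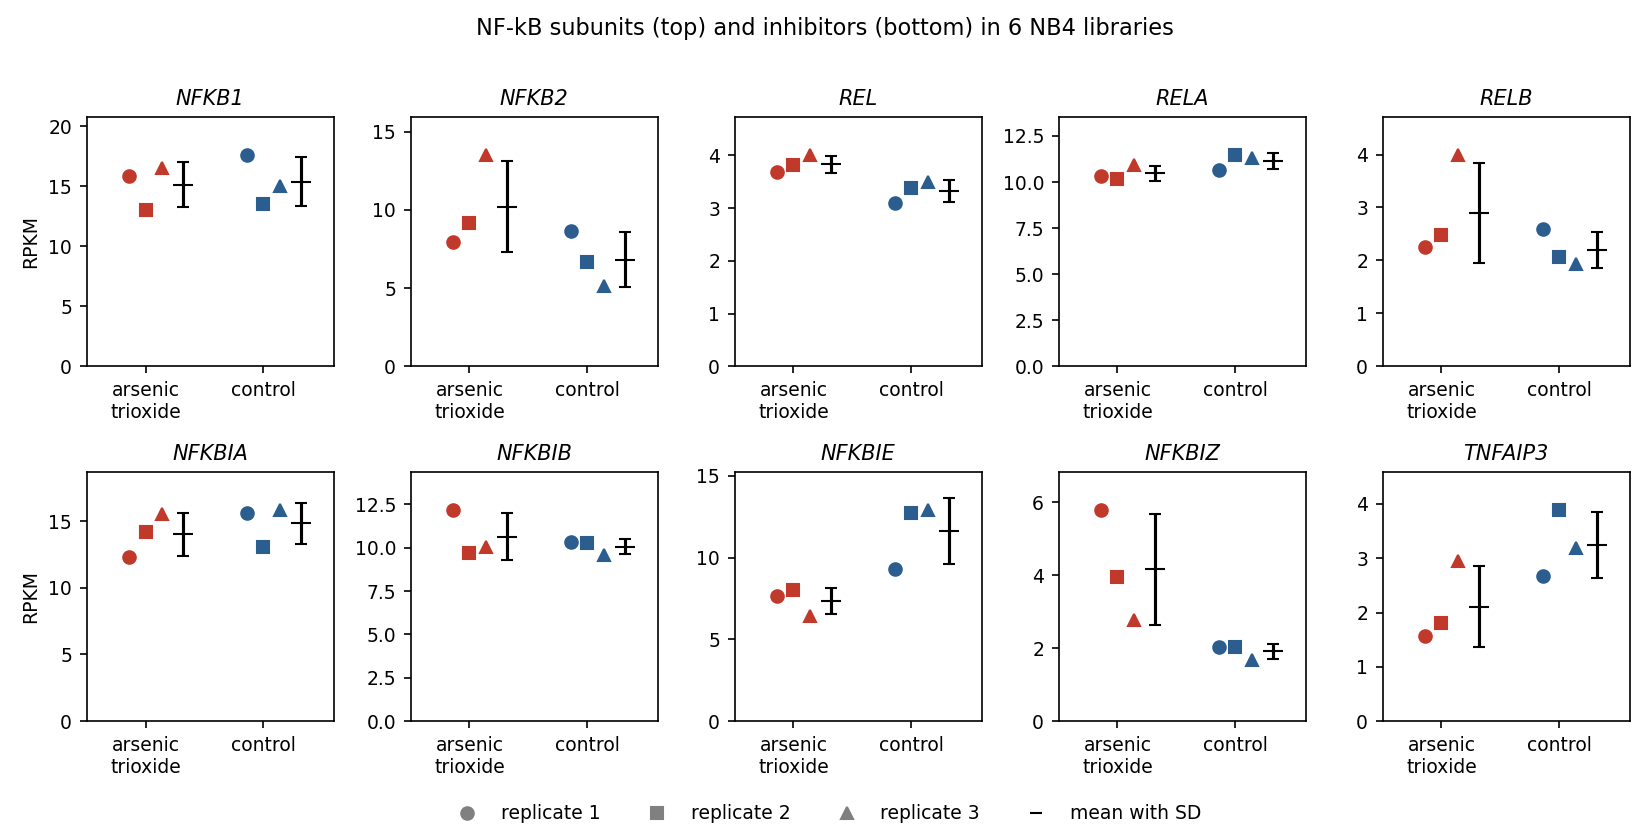
RPKM of the 10 members in each of the 6 libraries (vertical axes, each from 0), with arsenic trioxide left of control, replicates by marker shape, and the mean with its SD as a bar. NFKBIE is lower in all 3 treated libraries (6.44 to 7.99 RPKM) than in any control library, and NFKBIZ is higher in all 3 (2.76 to 5.78 RPKM).

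Among the subunits, NFKB1 was the most abundant and RELB the least in both groups. NFKB1, the precursor of the classical partner of RELA (chromosome 4, 102501329 to 102617302, GRCh38), stood at 15.9, 13.0 and 16.5 RPKM after arsenic trioxide and at 17.6, 13.5 and 14.97 RPKM in control. These ranges overlapped. Its log2 fold change was -0.02 ± 0.12 SE (adjusted p = 0.917), and the 95% interval of the fold ran from 0.807 to 1.20.

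RELA, the main activating subunit of the classical pathway (chromosome 11, 65653596 to 65663094), was the steadiest member. It stood at 10.3, 10.2 and 10.9 RPKM after arsenic trioxide and at 10.6, 11.5 and 11.3 RPKM in control. Its coefficient of variation was 3.71% and 3.97% in the same order, the ranges overlapped, and the log2 fold change was -0.08 ± 0.07 SE (adjusted p = 0.435). The interval of the fold, 0.842 to 1.06, is on the scale of the test and reflects only the spread between these libraries. It does not show that RELA was unchanged.

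REL encodes c-Rel, an activating subunit prominent in blood cells (chromosome 2, 60881521 to 60931610). Its levels were 3.68, 3.81 and 4.003 RPKM after arsenic trioxide and 3.09, 3.39 and 3.49 RPKM in control. All 3 treated libraries lay above all 3 control libraries, as was so in the higher direction for 21.9% of all tested genes, but the shift was small. The log2 fold change of 0.16 ± 0.11 SE did not pass the test (adjusted p = 0.300, interval of the fold 0.941 to 1.33). The deposited RPKM of REL were scaled to 11255 bases of exon, while GENCODE 29 holds 13170 for this gene, which bears on its level and, through the pseudocount, on its log2 fold change (0.20 with a pseudocount of 0.1 and 0.09 with 5).

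NFKB2 and RELB, whose products pair in the non-canonical pathway, were the subunits with the widest spread. NFKB2, the precursor subunit of that pathway (chromosome 10, 102394110 to 102402529), stood at 7.96, 9.19 and 13.5 RPKM after arsenic trioxide and at 8.63, 6.68 and 5.14 RPKM in control. Replicate 3 was the highest treated library, and the lowest treated library lay below control replicate 1. The group means were 10.2 ± 2.91 and 6.82 ± 1.75 RPKM (SD, n = 3 each), with a log2 fold change of 0.51 ± 0.22 SE that did not pass (adjusted p = 0.136, interval of the fold 0.991 to 2.06). Without arsenic trioxide replicate 3 it was 0.31 (adjusted p = 0.306). With limma-voom on the recovered reads it did pass (0.59, adjusted p = 0.0408).

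RELB, the activating partner of the processed NFKB2 product (chromosome 19, 45001430 to 45038198), was at 2.25, 2.47 and 3.99 RPKM after arsenic trioxide and at 2.59, 2.06 and 1.94 RPKM in control. Again treated replicate 3 and control replicate 1 were the highest of their groups, and the groups overlapped. The log2 fold change was 0.27 ± 0.19 SE (adjusted p = 0.349, interval of the fold 0.876 to 1.65). Without arsenic trioxide replicate 3 it was 0.08 (adjusted p = 0.752).

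Of the inhibitors, 1 of the classical cytoplasmic IkB genes, NFKBIE, was lower, and NFKBIA and NFKBIB did not pass the test. NFKBIE encodes IkB epsilon (chromosome 6, 44258166 to 44265788). It stood at 7.63, 7.99 and 6.44 RPKM after arsenic trioxide and at 9.28, 12.7 and 12.9 RPKM in control. All 3 treated libraries lay below all 3 control libraries, as was so in the lower direction for 22.6% of all tested genes, and control replicate 1 was the nearest to the treated ones. NFKBIE fell to 7.35 ± 0.814 RPKM after arsenic trioxide, against 11.6 ± 2.04 RPKM in control (SD, n = 3 each), a change of -0.59 ± 0.14 SE on the log2 scale (adjusted p = 0.0240). The call was lost without arsenic trioxide replicate 1 (adjusted p = 0.0573) or 3 (0.0644) and without control replicate 2 (0.0766) or 3 (0.0764), while the log2 fold change stayed between -0.73 and -0.51. In bulk RNA such as this, fewer cells with the transcript and less of it per cell cannot be told apart.

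NFKBIZ encodes IkB zeta, a nuclear IkB protein that works with NF-kB at a set of inducible genes rather than holding it in the cytoplasm (chromosome 3, 101827991 to 101861022). It stood at 5.78, 3.94 and 2.76 RPKM after arsenic trioxide and at 2.04, 2.03 and 1.68 RPKM in control. The groups did not overlap, as was so in the higher direction for 21.9% of all tested genes. The treated libraries were spread widely and the controls lay close together. NFKBIZ rose to 4.16 ± 1.52 RPKM after arsenic trioxide, against 1.92 ± 0.205 RPKM in control (SD, n = 3 each), a 2.17-fold ratio of means. On the log2 scale this was 0.78 ± 0.22 SE (adjusted p = 0.0387), or 1.07 with limma-voom on the recovered reads and 0.39 with a pseudocount of 5. Its call was lost with no filter on low values (adjusted p = 0.0526), without arsenic trioxide replicate 1 (0.0801) or 2 (0.0910), and without control replicate 1 (0.0796), 2 (0.0838) or 3 (0.106). Without arsenic trioxide replicate 3, the lowest treated library, the log2 fold change was 0.99 (adjusted p = 0.0166).

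TNFAIP3, a ubiquitin-editing enzyme that shuts off NF-kB signalling (chromosome 6, 137867188 to 137883312), was the least abundant inhibitor after arsenic trioxide. It was at 1.56, 1.81 and 2.95 RPKM after arsenic trioxide and at 2.68, 3.89 and 3.18 RPKM in control. Treated replicate 3 lay within the control range, while treated replicates 1 and 2 lay below every control library. The log2 fold change was -0.47 ± 0.20 SE and did not pass (adjusted p = 0.134, interval of the fold 0.521 to 1.01). It passed with limma-voom (-0.66, adjusted p = 0.0344) and without arsenic trioxide replicate 3 (-0.65, adjusted p = 0.0443). Of its exon bases 1.88% overlap a listed gene on the other strand, whose reads cannot be told apart because the kit does not mark strand.

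NFKBIA, the IkB alpha gene and a textbook early target of NF-kB (chromosome 14, 35401511 to 35404749), was the most abundant inhibitor in both groups. Its levels were 12.3, 14.2 and 15.5 RPKM after arsenic trioxide and 15.6, 13.1 and 15.8 RPKM in control. They overlapped, with a log2 fold change of -0.08 ± 0.11 SE (adjusted p = 0.639) and an interval of the fold from 0.791 to 1.13. NFKBIB, the IkB beta gene (chromosome 19, 38899700 to 38908893), was at 12.2, 9.71 and 10.0 RPKM after arsenic trioxide and at 10.4, 10.3 and 9.57 RPKM in control. Only treated replicate 1 left the control range upward, and the log2 fold change was 0.07 ± 0.10 SE (adjusted p = 0.650, interval of the fold 0.892 to 1.23). It shares 1.72% of its exon bases with SIRT2 on the other strand.

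**Figure D2:**
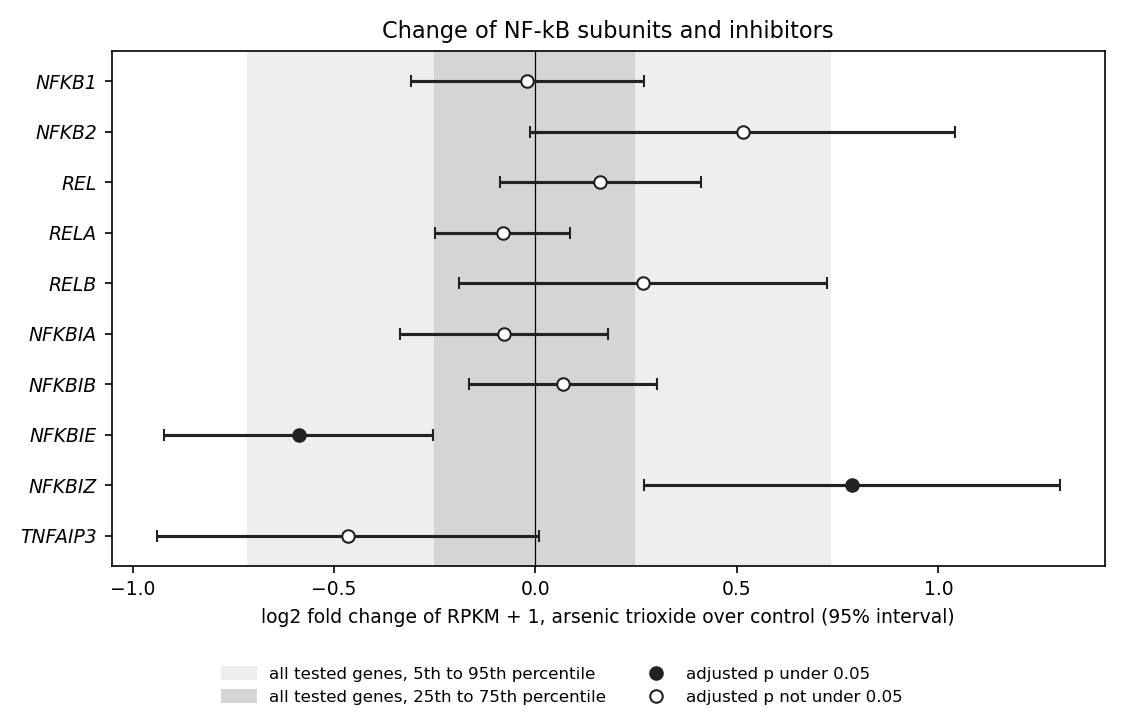
Log2 fold change of RPKM + 1, arsenic trioxide over control, of each member (horizontal axis) with its 95% interval from limma-trend, filled where the adjusted p was under 0.05. Grey bands span the 5th to 95th (-0.71 to 0.73) and 25th to 75th (-0.25 to 0.24) percentiles of all tested genes. NFKBIZ (0.78) and NFKBIE (-0.59) are the filled points.

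The authors' deposited table, which comes from a count model, lists an adjusted p under 0.05 for 3 of the members, against 29.4% of the tested genes that have one. In the authors' deposited table NFKBIZ has a log2 fold change of 1.11 (adjusted p = 4.74e-06) and NFKBIE one of -0.67 (adjusted p = 0.000129). TNFAIP3 is the third, at -0.64 (adjusted p = 0.0119) in the authors' deposited table. For NFKB2 and RELB the authors' deposited table gives 0.56 (adjusted p = 0.192) and 0.38 (adjusted p = 0.245).

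The members did not vary together across libraries in 1 pattern. NFKB1, NFKB2 and RELB were highest of their group in both arsenic trioxide replicate 3 and control replicate 1, and NFKBIE was lowest in both. Of all tested genes 18.5% were highest in both and 17.0% lowest in both. NFKB2 in arsenic trioxide replicate 3 was 1.57 times the mean of the other treated libraries, and in control replicate 1 it was 1.46 times the mean of the other controls. For RELB these ratios were 1.69 and 1.30, and for NFKBIE they were 0.824 and 0.725. Without these libraries the log2 fold change was 0.48 for NFKB2 (adjusted p = 0.1001), 0.16 for RELB (adjusted p = 0.472), and -0.65 for NFKBIE (adjusted p = 0.0162).

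As a description, Pearson's r of log2(RPKM + 1) between NFKB2 and RELB over the 6 libraries was 0.94, and 0.93 after each group's mean was taken out. Between NFKB2 and NFKBIE it was -0.90 and -0.85, and between RELA and TNFAIP3 it was 0.94 and 0.88. These were the strongest r over the 6 libraries among all pairs of members. Other pairs were weaker or changed sign, such as REL with RELA (-0.28 and 0.87) and NFKB2 with NFKBIZ (0.35 and -0.55). The points share libraries and the group difference. NFKBIZ and TNFAIP3 ran against each other among the treated libraries. NFKBIZ was highest (5.78 RPKM) and TNFAIP3 lowest (1.56 RPKM) in arsenic trioxide replicate 1, and replicate 3 held the lowest NFKBIZ (2.76 RPKM) and the highest TNFAIP3 (2.95 RPKM).

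**Figure D3:**
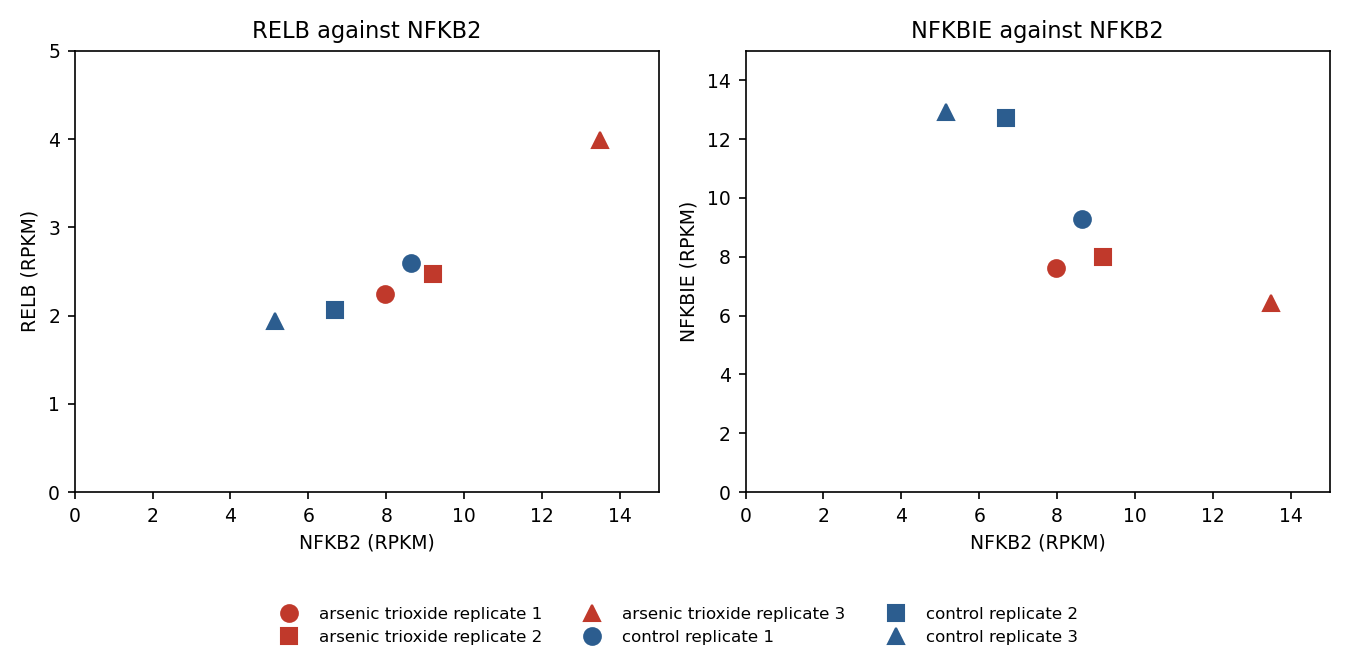
RPKM of RELB (left) and NFKBIE (right) against NFKB2 in the 6 libraries, arsenic trioxide in red and control in blue, with replicates by marker shape. Arsenic trioxide replicate 3 holds the highest NFKB2 (13.5 RPKM) and RELB (3.99 RPKM) and the lowest NFKBIE (6.44 RPKM), and of the controls replicate 1 lies nearest to the treated libraries.

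The genes whose pattern over the 6 libraries was most like that of NFKBIE, the member with the smallest p, were ZBTB16, RBPJ, LGALS12, UBASH3B and TMUB1, with Pearson's r of 0.994 to 0.997. ZBTB16, a zinc finger transcription factor of blood progenitors, averaged 2.19 ± 0.488 RPKM after arsenic trioxide and 4.61 ± 1.06 RPKM in control (SD, n = 3 each). RBPJ, the DNA-binding factor of Notch signalling, averaged 31.6 ± 1.65 and 40.0 ± 3.70 RPKM in the same order. Each of the 5 had its lowest control value in replicate 1 and its lowest treated value in replicate 3, as NFKBIE did, which follows from how they were chosen.

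Whether genes of the same role moved apart was tested on the log2 ratio of their RPKM + 1 in each library. NFKB2 over NFKB1 averaged -0.55 ± 0.33 after arsenic trioxide and -1.08 ± 0.26 in control (SD, n = 3 each). All 3 treated ratios lay above all 3 controls, with p = 0.1 in an exact two-sided permutation test, the smallest that 3 against 3 allows. RELB over RELA averaged -1.58 ± 0.29 after arsenic trioxide and -1.93 ± 0.20 in control (exact permutation p = 0.2, n = 3 each). NFKBIA over NFKBIB averaged 0.37 ± 0.31 after arsenic trioxide and 0.51 ± 0.18 in control (exact permutation p = 0.6, n = 3 each). Adjusted over the 3 pairs the p-values were 0.3, 0.3 and 0.6. The smallest p that 3 against 3 allows lies above the threshold used for genes, so no pair could have passed. The test therefore cannot decide whether these pairs moved apart.

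Summed over the 5 subunits, expression was 40.1, 38.6 and 48.9 RPKM after arsenic trioxide and 42.5, 37.1 and 36.8 RPKM in control. The classical IkB genes NFKBIA, NFKBIB and NFKBIE summed to 32.1, 31.9 and 32.0 RPKM after arsenic trioxide and to 35.3, 36.0 and 38.3 RPKM in control. NFKBIE made up 20.1% to 25.1% of that IkB sum after arsenic trioxide and 26.3% to 35.3% in control. The IkB sum per subunit sum was 0.801, 0.826 and 0.655 after arsenic trioxide and 0.829, 0.971 and 1.04 in control. These sums describe transcripts only and were not tested.

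Around the members, genes of the NF-kB pathway moved in both directions. A list of 96 other pathway genes was drawn up by role, with earlier results of these data known. Of these genes 85 were listed and 72 tested. After arsenic trioxide 23 were higher and 8 lower, 43.1% against 25.4% of all tested genes, with a median log2 fold change of 0.07. Because of how the list was chosen, this share is a description and no evidence of an excess over all genes. Among the higher genes IL1A, IL1B, TLR1 and CXCL2 reached the filter at a mean of 1 RPKM only through the treated libraries. Higher genes numbered 12 when arsenic trioxide replicate 1 was left out, 14 without control replicate 2 and 15 without control replicate 3. Lower genes numbered 5 without arsenic trioxide replicate 1 and also without control replicate 2. With arsenic trioxide replicate 3 and control replicate 1 both left out, 15 were higher and 5 lower of the 72, beside 1 higher and 2 lower of the 10 members. The difference in share between the list and the members was not tested. Of the genes named from the list IL1A (adjusted p = 0.0566), IL1B (0.0858), LTBR (0.0580), RIPK1 (0.0577), TRAF6 (0.0676) and UBE2V1 (0.0658) then lost their calls.

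Among ligands and receptors 4 of 12 tested genes rose and 1 fell, where 12.0% of all tested genes rose and 13.4% fell. In control IL1A, IL1B and TLR1 averaged 0.565, 0.734 and 0.791 RPKM, under the filter at a mean of 1 RPKM. They were tested only because the treated libraries raised their means, so this count of rises is no evidence about the role. TLR6, a co-receptor for bacterial lipopeptides, rose to 6.73 ± 0.433 RPKM after arsenic trioxide, against 1.87 ± 0.0333 RPKM in control (SD, n = 3 each; log2 fold change 1.43, adjusted p = 0.000459). Its neighbour TLR1 had a log2 fold change of 0.87 (adjusted p = 0.0193), a call lost without arsenic trioxide replicate 1 (0.0639) or 2 (0.0636) and without control replicate 1 (0.0525) or 3 (0.0531). The cytokine IL1A rose to 2.38 ± 0.689 RPKM, against 0.565 ± 0.122 RPKM in control. IL1B, which the naming rule did not pick and which was added with its values known, changed by 0.76 on the log2 scale (adjusted p = 0.0379), a call lost without arsenic trioxide replicate 1 (0.105) or 3 (0.101) and without control replicate 2 (0.106) or 3 (0.0903). LTBR, a receptor that feeds the non-canonical pathway, fell to 9.08 ± 0.478 RPKM, against 12.1 ± 0.375 RPKM in control (-0.38, adjusted p = 0.0113), and 6.72% of its exon bases overlap SCNN1A. TNF itself was at 20.4 ± 6.38 RPKM after arsenic trioxide and 25.1 ± 9.08 RPKM in control (-0.27, adjusted p = 0.555), and was likewise added with its values known.

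Among adaptors and kinases 8 of 24 tested genes rose and 4 fell, where 12.0% of all tested genes rose and 13.4% fell. TAB2, an adaptor of the kinase upstream of the IkB kinases, rose to 23.2 ± 0.611 RPKM after arsenic trioxide, against 14.4 ± 1.16 RPKM in control (SD, n = 3 each; log2 fold change 0.65, adjusted p = 0.00185). The ubiquitin ligase TRAF6 (0.46, adjusted p = 0.0120) and the kinase RIPK1 (0.47, adjusted p = 0.0165) rose as well, the call of RIPK1 being lost without arsenic trioxide replicate 1 (0.0509) or control replicate 2 (0.0538). Of the exon bases of RIPK1 5.63% overlap a listed gene on the other strand. CARD9, an adaptor for fungal receptors (-0.62, adjusted p = 0.00363, with 10.8% of its exon bases shared with DNLZ), and IKBKE, an IkB kinase-related kinase (-0.54, adjusted p = 0.00264, with 4.12% shared with C1orf147), fell. CHUK, a catalytic subunit of the IkB kinase, fell too (-0.33, adjusted p = 0.0177), a call lost without arsenic trioxide replicate 1 (0.0583) or 2 (0.0547) and without control replicate 1 (0.0526) or 2 (0.0543).

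Ubiquitin ligases and editors held 5 higher and 2 lower genes of 16 tested, where 12.0% of all tested genes were higher and 13.4% lower. CYLD, a deubiquitinase that restrains NF-kB signalling as TNFAIP3 does, rose to 5.55 ± 0.567 RPKM after arsenic trioxide, against 2.995 ± 0.383 RPKM in control (SD, n = 3 each; log2 fold change 0.71, adjusted p = 0.00823). RBCK1, a subunit of the linear ubiquitin ligase (0.63, adjusted p = 0.00362), and OTULIN, which removes linear chains (0.37, adjusted p = 0.0111), also rose. UBE2N, the enzyme that builds the chains TRAF6 uses, fell (-0.40, adjusted p = 0.00286), but 39.5% of its exon bases overlap NUDT4. Its partner UBE2V1 (-0.37, adjusted p = 0.0429) lost its call with no filter on low values (0.0612) and when any library but arsenic trioxide replicate 3 was left out (0.0754 to 0.127). Of other IkB proteins and partners, NKIRAS2, a small GTPase that binds IkB, rose (0.37, adjusted p = 0.0107), and 9.94% of its exon bases overlap DNAJC7 and ZNF385C. NKRF, a repressor of NF-kB target promoters, fell (-0.40, adjusted p = 0.00815), and 21.0% of its exon bases overlap UBE2A.

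Of the other target genes 5 of 14 tested rose and 0 fell in limma-trend at an adjusted p under 0.05. Of all tested genes 12.0% rose and 13.4% fell. Unadjusted, 6 target genes were higher and 1 lower at p under 0.05, a cut that 6586 of all 16803 tested genes passed in either direction. The lower one, PLAUR, the urokinase receptor gene, was added with its values known. It averaged 3.26 ± 0.536 RPKM after arsenic trioxide and 4.79 ± 1.17 RPKM in control (SD, n = 3 each). Its log2 fold change was -0.43 (adjusted p = 0.111). The groups did not overlap, as was so in the lower direction for 22.6% of all tested genes. CXCL8, the neutrophil chemokine, rose to 17.2 ± 4.74 RPKM after arsenic trioxide, against 3.84 ± 1.68 RPKM in control (SD, n = 3 each; log2 fold change 1.94, adjusted p = 0.00457). CXCL2, another neutrophil chemokine (0.93, adjusted p = 0.00552), and the interferon factor IRF1 (0.84, adjusted p = 0.00286) rose too, although 22.0% of the exon bases of IRF1 overlap C5orf56. CXCL2 averaged 1.76 RPKM after arsenic trioxide and 0.440 RPKM in control, on 11 to 67 reads per library. It passed the filter at a mean of 1 RPKM only through the treated libraries. The remaining 2, added with their values known, were the adhesion molecule ICAM1 (1.47, adjusted p = 0.00894) and TNFAIP2 (1.21, adjusted p = 0.0335). The call of TNFAIP2 was lost without arsenic trioxide replicate 1 (0.0651) or 3 (0.0708) and without control replicate 2 (0.0941) or 3 (0.0903). In the same libraries NFKBIA, itself a target, did not pass the test (-0.08), nor did SOD2 (0.03, adjusted p = 0.838) and CD83 (-0.08, adjusted p = 0.697), both added with their values known.

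**Figure D4:**
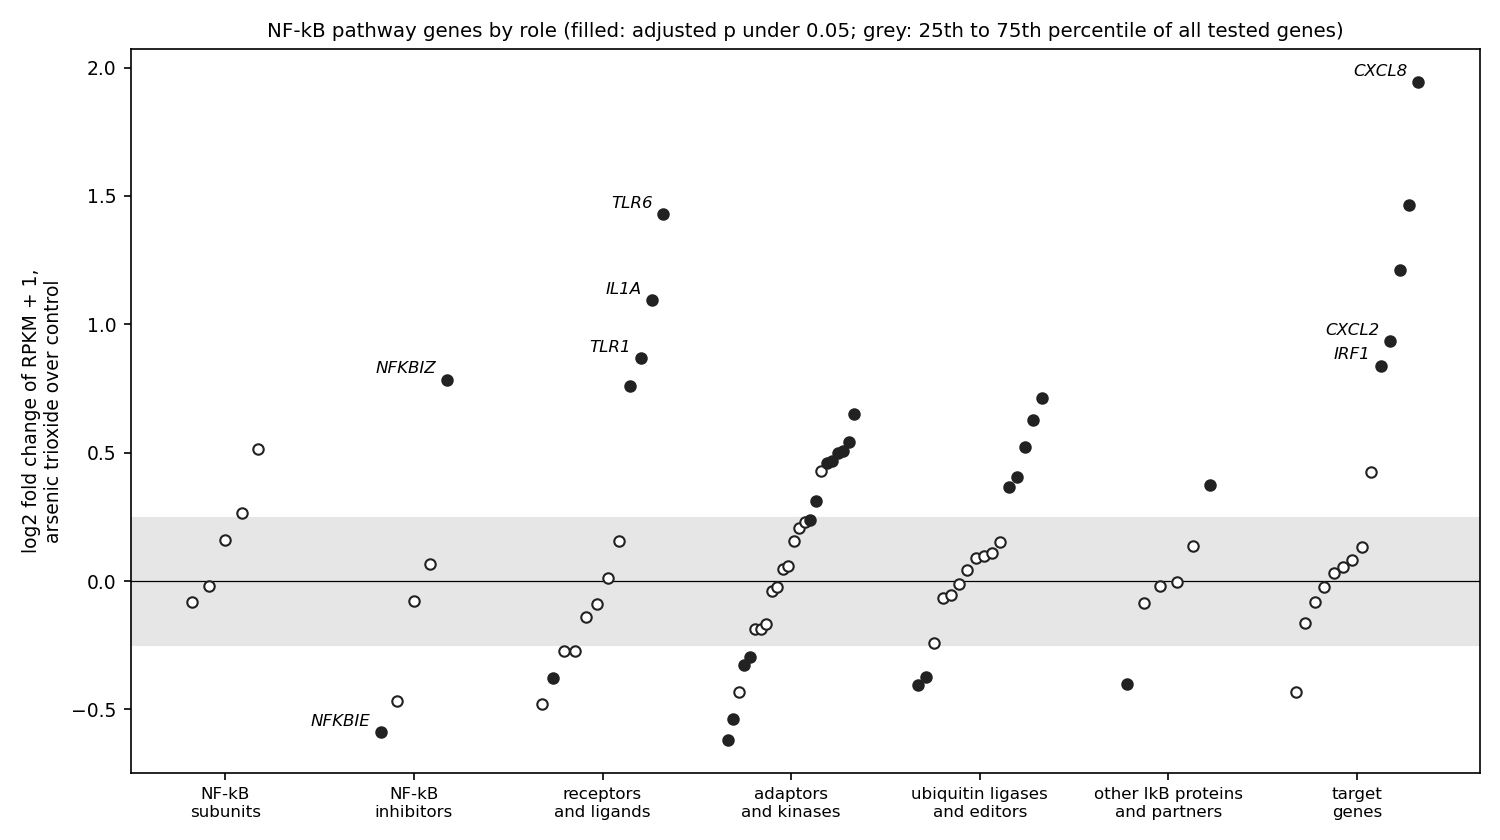
Log2 fold change of RPKM + 1, arsenic trioxide over control (vertical axis), of the members and the 72 other tested pathway genes, grouped by role and sorted within each group, filled where the limma-trend adjusted p was under 0.05, with the 25th to 75th percentile of all tested genes in grey. No subunit is filled, NFKBIZ (0.78) and NFKBIE (-0.59) are the filled inhibitors, and CXCL8 (1.94) is the highest target gene.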

How the data were processed

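Total RNA gave 6 NB4 libraries, made after removal of ribosomal RNA with NEBNext Ultra, which keeps no strand information, per the labels' protocols. HISAT2 2.1.0, HTSeq, DESeq2 and the build hg38 are listed by the submitters' processing notes, and the column names mark duplicate removal, per the file headers. The authors deposited RPKM per gene and library, with no unit stated in the header. The RPKM reading rests on the values, which give whole reads (tolerance 0.01) in all 6 libraries for 93.0% of genes with GENCODE 29 exon lengths, and for 100.0% once the length is settled with the deposited mean signal. The authors' log2 fold change with its error, test score, p-value and adjusted p-value are deposited in the same table and are quoted only as theirs.

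Here log2(RPKM + 1) was taken for the 16803 genes whose mean over the 6 libraries reached 1 RPKM (7055 left out) and fitted with limma 3.58.1 (R 4.3.3) in trend mode, after a check on simulated data. Ratios were compared with exact permutation tests (scipy 1.17.1). Depth was 19361333 to 22609019 reads, whose counting error intervals were not computed. Alternatives were other pseudocounts (0.1 and 5), no filter or 3 RPKM, median-ratio scaling, limma-voom on recovered reads, a replicate block and each library left out. Leaving out arsenic trioxide replicate 3 and control replicate 1 together, and single libraries for the ratios, was chosen after seeing the data. All members are named. Of the other pathway genes, up to 3 higher and 3 lower per role with the smallest p among called genes are named. The members and lists were chosen with earlier results of these data known. RELB and NFKBIE promoters are not analysed here. The result of 1 further marker list of another cell type, whose groups did not overlap, is not reported here.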

Additional observations from a re-analysis of the deposited data

How the results depend on the processing

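Pseudocounts of 0.1 and 5, median-ratio scaling and a filter at 3 RPKM each left the counts of members at 1 higher and 1 lower, though RELB and TNFAIP3 fell below the filter at 3 RPKM and were not tested there. With no filter 0 members were higher (1 lower). Limma-voom called 2 higher and 2 lower members, adding NFKB2 and TNFAIP3, with 2504 higher and 2739 lower genes overall. Leaving out 1 library gave 0 to 1 higher and 0 to 1 lower members, 12 to 18 higher and 5 to 7 lower pathway genes, and 1331 to 1525 higher and 1427 to 1908 lower genes overall. The 1 lower member without arsenic trioxide replicate 3 was TNFAIP3, not NFKBIE. Without arsenic trioxide replicate 3 and control replicate 1 together 2 members, 5 pathway genes and 1484 genes overall were lower, and 15 pathway genes and 1200 genes overall were higher. The ratio of NFKB2 over NFKB1 ranged from 0.39 to 0.72 and that of RELB over RELA from 0.18 to 0.47 with 1 library left out, while NFKBIA over NFKBIB ran from -0.25 to 0.03, turning sign without arsenic trioxide replicate 1 (0.0305). The cause was not tested.

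The labels do not say that the replicate numbers pair the samples, and the values cannot settle it. Deviations from the group mean of same-numbered libraries correlated at -0.09, 0.15 and -0.08, and arsenic trioxide replicate 3 correlated best with control replicate 1 (0.22). With the replicate number as a block 0 members were lower (NFKBIE, adjusted p = 0.0514), 1 was higher, and 5 pathway genes were lower. Of the named pathway genes CHUK (0.0594) and UBE2V1 (0.0939) lost their calls under the block.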
